A study of Homo sapiens with 12 samples.

Results

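The uroplakin genes UPK1A, UPK1B, UPK2, UPK3A and UPK3B were followed across 12 bead arrays of cells labelled as a prostate cancer line. Every probe whose annotation named 1 of these 5 genes was taken, which gave 9 probes of the 47230 on the array and 5 genes of the 20046 that could be named. UPK3B had 5 probes and each other gene had 1. The genes were picked with their response to doxycycline already known, so their levels with and without dox are given as a description, with no test. Changes with androgen were tested, although they share arrays with the dox comparisons.

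By the labels, all arrays came from cells called C4-2B/Rx2dox, in which doxycycline (dox) induces RUNX2, a transcription factor best known for driving bone formation. Dihydrotestosterone (DHT) was used to activate the androgen receptor. There were 4 groups of 3 arrays: DHT with dox, dox alone, DHT alone and the ethanol vehicle. All cultures were first held in charcoal-stripped, phenol-red-free medium, and the agents were then given for 48 h. The labelled doses were 10 mM DHT and 250 µg/ml dox; both are copied as written, and their units were not resolved. The source name of the samples reads C4-2B/181, and whether the line is 1 clone is not given in the sources used here. No group had dox without the inducible line, so an effect of RUNX2 and an effect of dox itself cannot be told apart.

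Uroplakins are membrane proteins of the superficial umbrella cells of the bladder lining, where they assemble into the rigid plaques of the asymmetric unit membrane that seal the surface against urine. UPK1A and UPK1B are tetraspanins, with 4 membrane-spanning segments, while UPK2, UPK3A and UPK3B cross the membrane once. In that tissue UPK1A pairs with UPK2, and UPK1B pairs with UPK3A or UPK3B. Pairing is needed for most of them to leave the endoplasmic reticulum, and UPK1B is the exception that can reach the surface alone. Pathologists use uroplakin proteins as markers of urothelial tumours.

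The 5 genes lie on 5 chromosomes. In the RefSeq table of the GRCh38.p14 build, UPK1A spans chr19:35666517-35678481, UPK1B chr3:119173598-119205143, UPK2 chr11:118956298-118958559, UPK3A chr22:45284949-45295874 and UPK3B chr7:76510552-76516522. The 250 bases before the gene start are shown for the 3 members whose promoter RefSeq supplied here, because UPK1A and UPK3B were lower with dox while UPK1B stayed near background. They read chr19:35666267-35666516, chr3:119173348-119173597 and chr7:76510302-76510551, all on the plus strand, 5′ to 3′, and capitals mark the letters TATAAA.
UPK1A: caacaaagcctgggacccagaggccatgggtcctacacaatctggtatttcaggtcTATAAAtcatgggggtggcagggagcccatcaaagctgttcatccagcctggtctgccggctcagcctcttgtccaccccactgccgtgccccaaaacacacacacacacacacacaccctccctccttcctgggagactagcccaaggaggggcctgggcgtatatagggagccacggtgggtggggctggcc
UPK1B: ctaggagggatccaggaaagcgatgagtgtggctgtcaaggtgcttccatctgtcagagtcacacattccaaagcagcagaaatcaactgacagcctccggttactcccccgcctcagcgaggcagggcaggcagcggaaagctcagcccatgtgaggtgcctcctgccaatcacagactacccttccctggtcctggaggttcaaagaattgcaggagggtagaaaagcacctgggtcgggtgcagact
UPK3B: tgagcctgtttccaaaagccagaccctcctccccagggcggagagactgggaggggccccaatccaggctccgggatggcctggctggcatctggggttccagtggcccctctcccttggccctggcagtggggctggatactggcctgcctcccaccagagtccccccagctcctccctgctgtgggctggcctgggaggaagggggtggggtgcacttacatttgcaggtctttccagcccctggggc

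The G and C content of these stretches was 60.0% for UPK1A, 56.8% for UPK1B and 67.2% for UPK3B. A total of 5 motifs were searched on both strands: the RUNX core TGTGGT, the androgen receptor half-site TGTTCT, the GATA motif AGATAA, the estrogen response element (GGTCA and TGACC with 3 bases between) and the TATA box TATAAA. The one match was TATAAA in UPK1A, whose first base lay at position -194 relative to the gene start. Among 35116 RefSeq promoters of the same length, 11% held TGTGGT, 12.4% held TGTTCT, 9.17% held AGATAA, 0.0399% held the estrogen response element and 10.7% held TATAAA. These counts describe the letters in the window only.

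Several facts of the whole series bear on the members. A probe was taken as above background when its intensity passed 147.5, the 95th percentile of 640 probes for gene families that few tissues express. Of the named genes 12110 passed this limit in at least 1 group and were tested with limma. Replicate arrays correlated at 0.9938 to 0.9954, and arrays of different groups at 0.9767 to 0.9932. The brighter RUNX2 probe averaged 304 ± 39.5 with DHT and dox, 269.8 ± 24.3 with dox, 286 ± 23.5 with DHT and 214 ± 10.1 with vehicle (SD, n = 3 each). Its log2 change was 0.33 for dox against vehicle (limma adjusted p = 0.016), 0.08 for DHT with dox against DHT (limma adjusted p = 0.578) and 0.41 for DHT against vehicle (limma adjusted p = 0.0148). The dox call was lost with the mean of both probes (0.125), on housekeeping centring (0.515), without dox replicate 1 (0.0848) and without vehicle replicate 2 (0.056), each a limma adjusted p. The DHT call was lost in the same way with the mean of both probes (0.212), on housekeeping centring (0.0842), without DHT replicate 1 (0.0854) and without vehicle replicate 2 (0.0553). The second RUNX2 probe changed by -0.01 for dox against vehicle (limma adjusted p = 0.944). The regions these probes read are unstated, so whether they see the induced copy, and with it the dox label, stayed unchecked. Some markers went against the labelled prostate origin: KLK3, the gene of prostate-specific antigen, was above background on 1 of 12 arrays. KLK2 and FOLH1 passed the limit on 0 and HOXB13 on 1. All 12 arrays had 5 of 16 measured prostate luminal markers above background, and 10 of 14 breast luminal ones. These 5 prostate genes were TMPRSS2, at 298 to 1332, with SLC45A3, MSMB, PMEPA1 and FKBP5. In the breast luminal list, SCGB2A2 did not pass the limit on any array, nor did ANKRD30A. ESR1, which encodes the estrogen receptor, spanned 2157 to 4711. Groups are therefore called by their labels throughout.

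UPK1A, the tetraspanin partner of UPK2, was bright without dox and dim with it. It read 205, 253 and 184 on the arrays with DHT and dox, and 1294, 1318 and 1339 on the arrays with DHT. It read 233, 234 and 269 on the dox arrays, against 1415, 1495 and 1501 on the vehicle arrays. All 6 arrays labelled dox lay far below all 6 others, yet every one was still above the background limit. The means were 214 ± 35.4 with DHT and dox, 245 ± 20.5 with dox, 1317 ± 22.6 with DHT and 1470.4 ± 47.9 with vehicle (SD, n = 3 each). The log2 change was -2.59 ± 0.10 for dox against vehicle (SE), a level 6.01-fold lower, and -2.63 ± 0.10 with DHT present, or 6.20-fold lower. Among the 12110 genes tested UPK1A had the lowest log2 change in both comparisons, rank 1 in each. Since dim intensities still contain background signal, these folds are compressed. Subtracting the background median of 118.5 and then adding 16 to every value gave -3.27 and -3.49.

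UPK2, the single-pass partner of UPK1A in the plaque, was also lower with dox, by a smaller factor. It read 721, 757 and 824 on the arrays with DHT and dox, and 2100.2, 1901 and 2229.5 on those with DHT. It read 726, 711 and 641 on the dox arrays, against 1739, 1737 and 1661 on the vehicle arrays. The groups with and without dox did not overlap, at either androgen state. The log2 change was -1.31 ± 0.08 for dox against vehicle (2.47-fold lower) and -1.44 ± 0.08 for DHT with dox against DHT (2.70-fold lower). UPK2 ranked 26 and 32 from the lowest change of all genes in these comparisons.

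**Figure D1:**
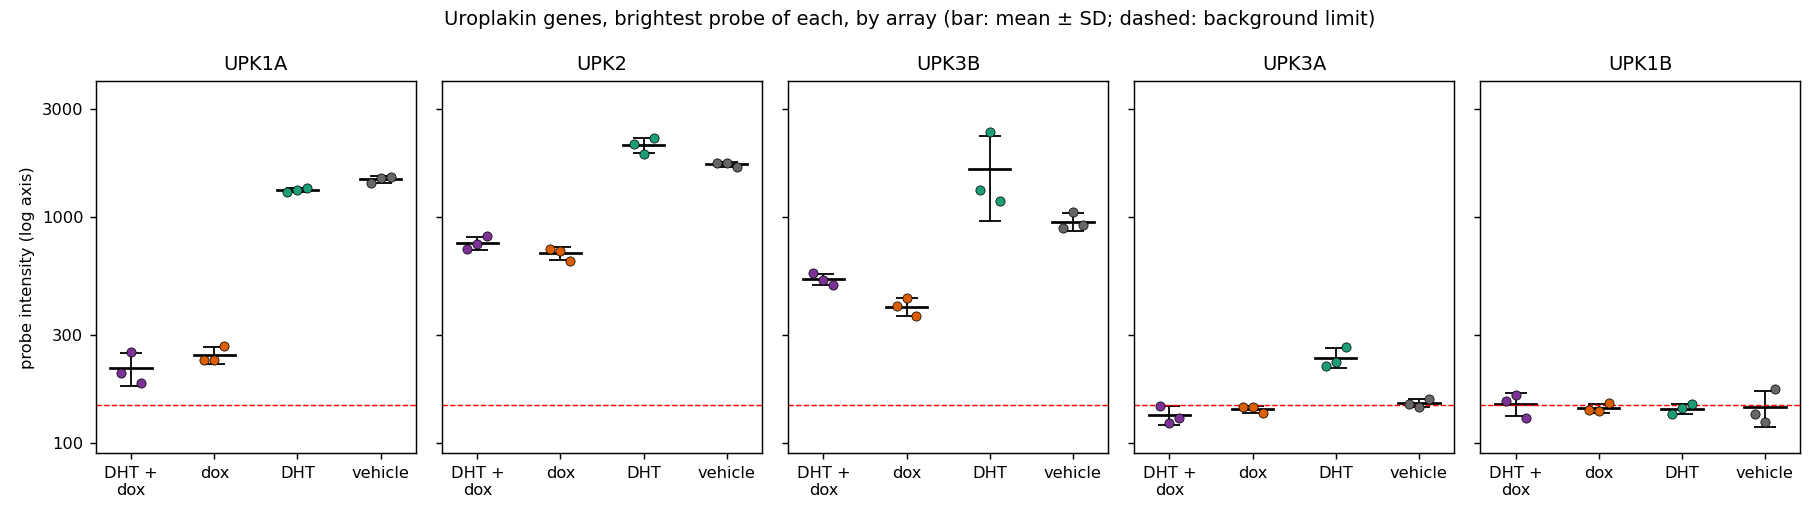
Probe intensity on a log axis for each uroplakin gene by its brightest probe, with 1 point per array, a bar at the group mean and whiskers of 1 SD; the groups run DHT with dox, dox, DHT and vehicle, and the dashed line is the background limit of 147.5. UPK1A, UPK2 and UPK3B were lower on every array with dox, UPK3A stood above the limit on all 3 arrays only with DHT alone, and UPK1B stayed at the limit in every group.

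UPK3B, a single-pass partner of UPK1B that is also made by the mesothelium, was read by 5 probes. Its brightest probe, ILMN_2264177, read 563, 529 and 502 on the arrays with DHT and dox, and 1315, 2379.9 and 1176 on those with DHT. It read 406, 437 and 364 on the dox arrays, against 891, 1050.5 and 918 on the vehicle arrays. The 6 arrays with dox lay below the 6 without it, and DHT replicate 2 stood well above its fellows on this probe. The log2 change was -1.24 ± 0.16 for dox against vehicle (2.37-fold lower) and -1.54 ± 0.16 for DHT with dox against DHT (2.91-fold lower). Without DHT replicate 2 the second value was -1.23.

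The other UPK3B probes showed how far that value depends on the probe. ILMN_1706441 read 478, 487 and 516 with DHT and dox, 306, 383 and 387 with dox, 947, 995 and 1064 with DHT, and 996, 1002 and 905 with vehicle. In the same order of groups ILMN_1803024 averaged 362 ± 38.3, 293 ± 40.8, 736 ± 45.2 and 673 ± 34.1 (SD, n = 3 each). ILMN_2353276 averaged 387 ± 49.7, 355 ± 28.2, 775 ± 63.8 and 665 ± 200.1. All 3 probes were lower with dox, by log2 changes of -1.44, -1.21 and -0.87 against vehicle and of -1.02, -1.02 and -1.01 with DHT present. The 5th probe, ILMN_1701565, stayed near background, above the limit on 5 of 12 arrays, with changes of 0.01 and -0.10. The mean of all 5 probes gave -0.95 and -0.94. Levels of different probes are not comparable with each other, and which transcripts each probe reads is not given in the sources used here.

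**Figure D2:**
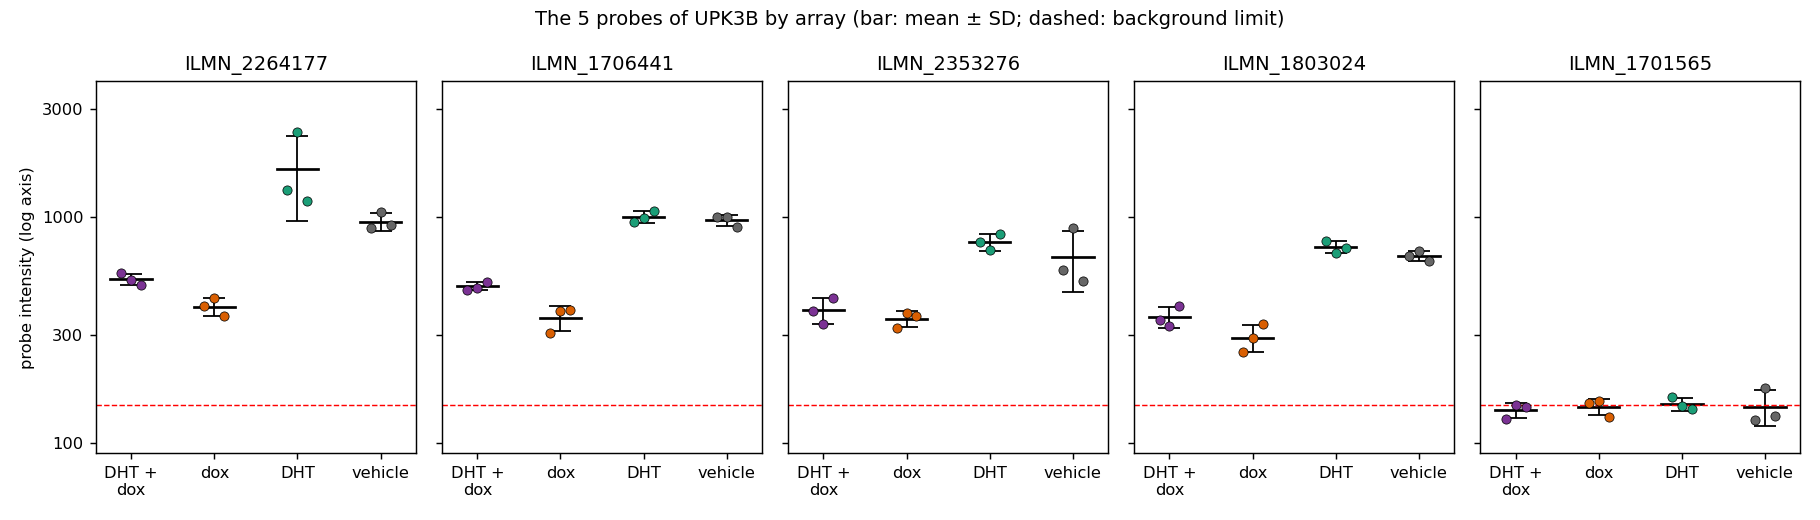
Intensity of the 5 UPK3B probes on a log axis, 1 panel per probe and 1 point per array, in the order DHT with dox, dox, DHT and vehicle; bars are group means with whiskers of 1 SD and the dashed line is the background limit. On 4 probes every array with dox lay below every array without it, DHT replicate 2 at 2379.9 stood apart on the brightest probe alone, and the dimmest probe did not leave the background.

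UPK3A, the single-pass partner of UPK1B that marks umbrella cells, was near background except with DHT alone. It read 146, 123 and 129 on the arrays with DHT and dox, of which 0 were above the limit, and 219, 229 and 265 on the DHT arrays, of which 3 were. It read 144, 144 and 136 on the dox arrays, with 0 above the limit, against 149, 145 and 157 on the vehicle arrays, with 2 above it. Only the DHT group stood clear of the other 3 groups. UPK3A was at least 1.61-fold lower with DHT and dox than with DHT, at a measured log2 difference of -0.84 ± 0.09. That difference became -2.22 after subtracting the background median of 118.5 and adding 16. For readings this near background the result depends on the added 16, so no size is read from it. With dox against vehicle the measured difference was -0.09 ± 0.09, no larger than its SE, and not every vehicle array passed the limit. No decrease is read from that difference.

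UPK1B, the tetraspanin that pairs with UPK3A and UPK3B, did not leave the background. It read 153, 164 and 129.5 with DHT and dox, 139.5, 139 and 151 with dox, 135, 143 and 149 with DHT, and 135, 124 and 173 with vehicle. All 4 groups overlapped, and 5 of 12 arrays were above the limit. It entered the test only because its mean with DHT and dox passed the limit by a small margin, and the log2 changes were 0.01 ± 0.11 for dox against vehicle and 0.06 ± 0.11 for DHT with dox against DHT. At this signal a change in UPK1B was not detectable.

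Every dox array lay below every vehicle array for 4 of 5 members, UPK3A included at its low signal, as it did for 22.1% of all genes tested. With DHT present, 4 of 5 members again did not overlap in that direction, against 25% of all genes. These counts describe the choice of the members and nothing is read from them. In bulk RNA, fewer cells that make a transcript and less transcript per cell cannot be told apart.

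The DHT comparisons were tested, but they are not independent of the choice of members: DHT against vehicle shares the vehicle arrays with dox against vehicle, and DHT with dox against dox shares the dox arrays. Against vehicle, 3 of 5 uroplakin genes rose with DHT by limma adjusted p and 0 fell, where 4.51% of all genes rose and 3.1% fell. UPK3A rose 1.58-fold (limma log2 change 0.66 ± 0.09 SE for 3 against 3 arrays, adjusted p = 0.000102), with all 3 DHT arrays above all 3 vehicle arrays, as for 13.8% of all genes. It was called under all 20 alternative settings, at changes of 0.49 with housekeeping centring to 1.49 after subtracting background. The latter depends on the 16 added after subtraction, since the vehicle readings lay near background. UPK2 rose 1.21-fold (log2 0.28 ± 0.08, limma adjusted p = 0.0341), but the call was lost when any of DHT replicates 1 and 3 or the 3 vehicle replicates was left out, at limma adjusted p of 0.0602 to 0.155. Centred on housekeeping genes it was 0.11 (limma adjusted p = 0.366).

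UPK3B by its brightest probe rose 1.62-fold with DHT (log2 0.70 ± 0.16, limma adjusted p = 0.00984), and without DHT replicate 2 the change was 0.39 (limma adjusted p = 0.0278). The other UPK3B probes did not pass: ILMN_1706441 changed by 0.05, ILMN_1803024 by 0.13 and ILMN_2353276 by 0.26, at limma adjusted p of 0.826, 0.535 and 0.333. The UPK3B call with DHT therefore rests on 1 probe. UPK1A gave a log2 change of -0.16 ± 0.10 (limma adjusted p = 0.38), with all DHT arrays just under all vehicle arrays, as for 11.3% of all genes, and was called when arrays were centred on housekeeping genes (-0.32, limma adjusted p = 0.0346). UPK1B was at -0.00 ± 0.11 (limma adjusted p = 0.996).

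With dox present, DHT called 0 of 5 uroplakin genes by limma's adjusted p, where 4.27% of all genes were called in either direction. At an unadjusted limma p under 0.05 there were 2, UPK1A and UPK3B. The share of all genes under that unadjusted p was not counted, so nothing is read from these 2. UPK3B changed by 0.40 ± 0.16 on its brightest probe (limma adjusted p = 0.176), with the 3 arrays of DHT with dox all above the 3 dox arrays, as for 9.52% of all genes, and by 0.47 on ILMN_1706441 (limma adjusted p = 0.00447). UPK1A was at -0.20 ± 0.10 (limma adjusted p = 0.257), UPK2 at 0.15 ± 0.08 (limma adjusted p = 0.324) and UPK1B at 0.05 ± 0.11 (limma adjusted p = 0.861). UPK3A was below background on all 6 of these arrays and has no fold.

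The interaction asks whether the DHT change with dox differs from the DHT change without it. It equals the difference between both dox changes, which were known when the members were chosen, so its p-values are a description. It was called for 1 of 5 uroplakin genes, UPK3A, in the lower direction, where 0.157% of all genes were called lower. The UPK3A difference was -0.75 ± 0.13 on the log2 scale (limma adjusted p = 0.0124), the 2nd lowest of 12110 genes. It is a difference of measured intensities, 2 groups of which have only a bound, since all 6 arrays with dox were below background. The call was lost after subtracting background, at -1.91 (limma adjusted p = 0.0538), and after centring on housekeeping genes, at -0.57 (limma adjusted p = 0.0539). For UPK1A the interaction was -0.05 ± 0.14 (limma adjusted p = 0.948), for UPK2 -0.13 ± 0.11 (limma adjusted p = 0.741) and for UPK3B -0.30 ± 0.23 (limma adjusted p = 0.702). The sign of the UPK3B interaction turned with the probe, to 0.42 on ILMN_1706441 (limma adjusted p = 0.272).

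**Figure D3:**
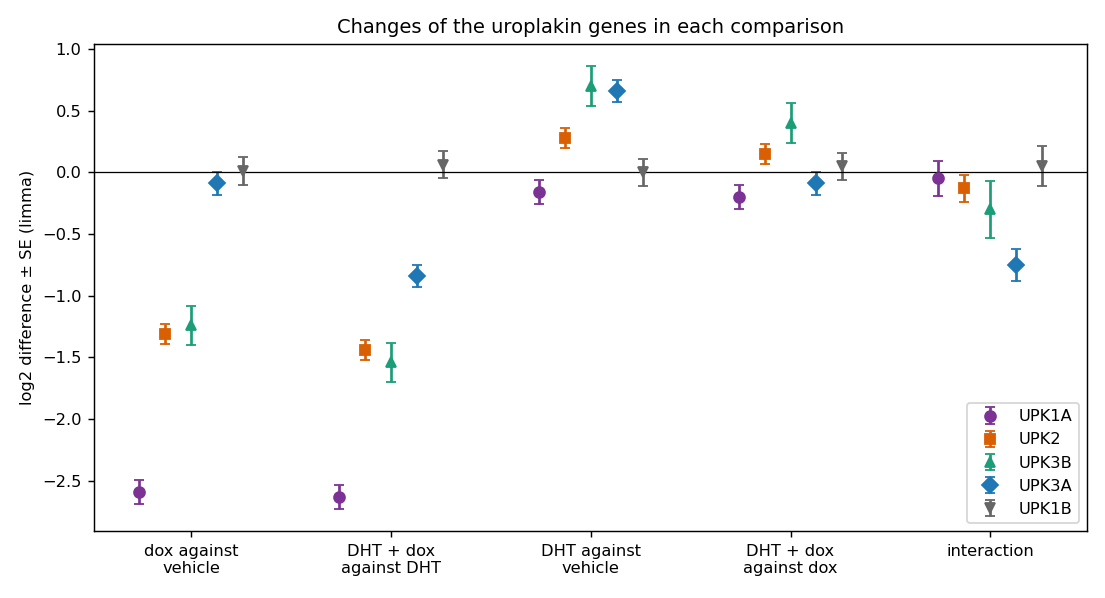
Log2 change with its standard error for each uroplakin gene by its brightest probe in 5 comparisons: dox against vehicle, DHT with dox against DHT, DHT against vehicle, DHT with dox against dox, and the interaction. The UPK1A changes with dox lie near -2.6, those of UPK2 and UPK3B between -1.24 and -1.54, and UPK3A departs from 0 only in comparisons that involve the DHT group.

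UPK3BL1, a uroplakin-3b-like gene, was measured on its own probe. The members were chosen by their response to dox, and this relative was listed with earlier results of these data known. The p-values of UPK3BL1 with dox are therefore a description. UPK3BL1 read 2070.5, 2119 and 1889 with DHT and dox and 2363, 2675 and 2429 with DHT. It read 2384, 2103 and 2161 with dox, against 2676, 2668 and 3065 with vehicle. UPK3BL1 fell in both dox comparisons, with log2 changes of -0.34 ± 0.08 against vehicle (limma adjusted p = 0.00171) and -0.30 ± 0.08 with DHT present (limma adjusted p = 0.00491), where 16.7% and 19.2% of all genes fell. Its change with DHT was -0.17 (limma adjusted p = 0.202). Whether probes of this family read closely similar copies of one another was not tested.

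The genes whose pattern was most like that of UPK1A were found by the root mean square difference of log2 profiles, each centred on its own mean, over 12 arrays and 12109 genes. BCAS1 came first, at 0.25, with means of 783 with DHT and dox, 838 with dox, 3644 with DHT and 3944 with vehicle. IGFBP3, an insulin-like growth factor binding protein, followed at 0.39, with means of 402, 327, 1428 and 1458 in the same groups. TNS3, a focal adhesion protein, was at 0.43, the lactate receptor gene HCAR1 at 0.45 and the p53-induced TP53INP1 at 0.50. UPK2 ranked 23 by this measure (0.67) and UPK3B 47 (0.76), while UPK3A ranked 910 and UPK1B 6893. The profiles share the arrays and the dox contrast that chose UPK1A, so the order is a description.

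**Figure D4:**
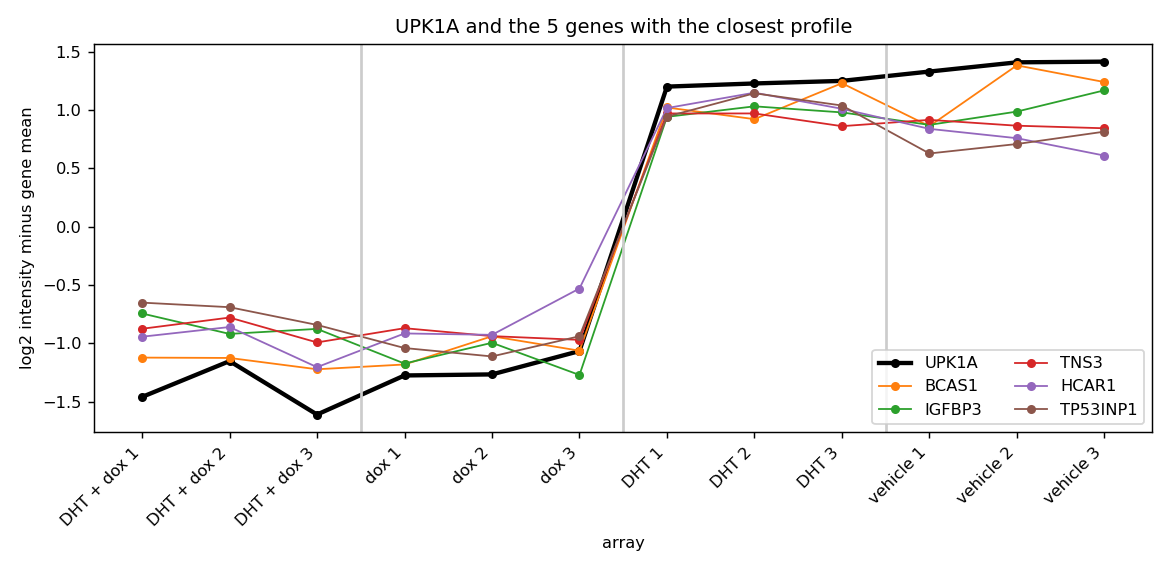
Centred log2 profiles over the 12 arrays for UPK1A and the 5 genes most like it, with arrays in the order DHT with dox, dox, DHT and vehicle. The 6 lines lie below 0 on every array with dox and above 0 on every array without it, and BCAS1 runs closest to UPK1A, at a root mean square difference of 0.25.

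Transcription factors of the urothelial programme were lower with dox as well. This list and those of urothelial markers, apical vesicle traffic and tetraspanins were drawn up with earlier results of these data known. The genes named from them are mainly those with the largest changes. Their counts and p-values with dox are therefore a description. Of 10 tested, 9 fell and 0 rose with dox against vehicle, at a median log2 change of -0.41 against -0.01 over all genes, of which 16.7% fell and 16.1% rose. With DHT present 8 fell and 0 rose, at a median of -0.41 against -0.02 over all genes, of which 19.2% fell and 14.3% rose. GRHL3, a Grainyhead factor of umbrella cell differentiation, fell, with log2 changes of -1.70 ± 0.12 (SE, limma adjusted p = 3.58e-10) and -1.69 with DHT present (limma adjusted p = 3.06e-10), at means of 205 with DHT and dox, 169 with dox, 662 with DHT and 552 with vehicle. ELF3, an epithelial ETS factor, fell likewise, by changes of -1.16 ± 0.08 (limma adjusted p = 1.03e-09) and -1.27 (limma adjusted p = 1.87e-10).

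GATA3, a luminal and urothelial factor, fell, with log2 changes of -0.53 with dox (limma adjusted p = 7.29e-06) and -0.22 with DHT present (limma adjusted p = 0.0241), and this second call was lost without DHT with dox replicate 2 (0.136), DHT replicate 2 (0.0769) or DHT replicate 3 (0.0502), each a limma adjusted p. IRF1, an interferon-regulated factor, fell in both comparisons, at -0.35 (limma adjusted p = 0.00445) and -0.54 (limma adjusted p = 6.33e-05). KLF5, a Krüppel-like factor of epithelia, fell with dox against vehicle at -0.49 (limma adjusted p = 0.00117) and gave -0.19 with DHT present (limma adjusted p = 0.185). With DHT and dox against dox, 2.03% of all genes rose and 2.24% fell. Of the factors, 2 rose, GATA3 by 0.50 (limma adjusted p = 0.000175) and PPARG, and 1 fell. This was GRHL2, a second Grainyhead factor, at -0.31 (limma adjusted p = 0.0193), a call lost in 5 of 20 settings. They were housekeeping centring (0.098) and leaving out DHT with dox replicate 1 (0.0679) or 3 (0.0502) or dox replicate 2 (0.0837) or 3 (0.0642), each a limma adjusted p. PPARG, the nuclear receptor at the head of urothelial differentiation, fell, at -0.29 (limma adjusted p = 0.00312) and -0.34 (limma adjusted p = 0.000776), the first lost with the mean of its probes (limma adjusted p = 0.0957). With DHT, 2 factors rose and 0 fell against vehicle, where 4.51% of all genes rose and 3.1% fell. They were PPARG, by 0.59 ± 0.07 (limma adjusted p = 1.63e-05), and ELF3, by 0.33 (limma adjusted p = 0.0205). PPARG also rose with DHT in the presence of dox, by 0.54 (limma adjusted p = 6.39e-05), and its means were 1807 with DHT and dox, 1244 with dox, 2281 with DHT and 1519 with vehicle. The PPARG calls with DHT held under all 20 settings. The ELF3 call with DHT was lost without DHT replicate 1 (0.124), vehicle replicate 1 (0.0635) or vehicle replicate 2 (0.0637) and on housekeeping centring (0.213), each a limma adjusted p.

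Most other urothelial marker genes fell with dox. Of 9 tested, 8 fell and 1 rose with dox against vehicle, at a median of -0.53, where 16.7% of all genes fell and 16.1% rose. With DHT present 7 fell and 1 rose, at a median of -0.62, where 19.2% of all genes fell and 14.3% rose. S100P, a calcium-binding protein, fell, with log2 changes of -0.92 (limma adjusted p = 5.77e-10) and, with DHT present, -1.12 (limma adjusted p = 1.78e-11). PSCA, a surface antigen of prostate and bladder, fell, at -0.88 (limma adjusted p = 7.03e-08) and -1.08 (limma adjusted p = 2.69e-09). ADIRF fell at -0.80 (limma adjusted p = 3.06e-07) and -0.73 (limma adjusted p = 9.43e-07), and GDPD3 at -0.61 (limma adjusted p = 5.74e-06) and -0.74 (limma adjusted p = 3.72e-07). The exception was KRT13, a keratin of basal and intermediate urothelial cells, which rose by 1.53 with dox (limma adjusted p = 1.27e-11), at a mean of 435 against 150. With DHT present it was at least 2.49-fold higher (limma adjusted p = 2.68e-11). SNX31 and FABP4 were above background on 0 arrays, and 4 of 11 markers on all 12. The summed intensity of the list was 5745 to 5972 with DHT and dox, 5606 to 6040.1 with dox, 10209.7 to 10833 with DHT and 8698 to 9769 with vehicle. S100P alone averaged 2686, 2724, 5848 and 5145 in the same order of groups, so the sum mainly follows the brightest genes. Of 5 measured basal squamous markers, KRT5, KRT14 and DSG3 were above background on 0 arrays, while ITGB4 and LAMB3 were above it on all 12.

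With DHT against vehicle 2 urothelial markers rose and 0 fell, at a median of 0.10, where 4.51% of all genes rose and 3.1% fell. PSCA rose by 0.36 (limma adjusted p = 0.0123), a call lost without DHT replicate 2 (0.0561) or vehicle replicate 1 (0.0596) and after subtracting background (0.115). GDPD3 rose by 0.32 (limma adjusted p = 0.0192), a call lost without DHT replicate 1 (0.111), vehicle replicate 1 (0.0814) or vehicle replicate 3 (0.0566). The values in these parentheses are limma adjusted p. Centred on housekeeping genes, 0 rose and 1 fell, at a median of -0.06. That scaling moved the median of all genes to -0.16 in this comparison, and to -0.26 for dox against vehicle.

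**Figure D5:**
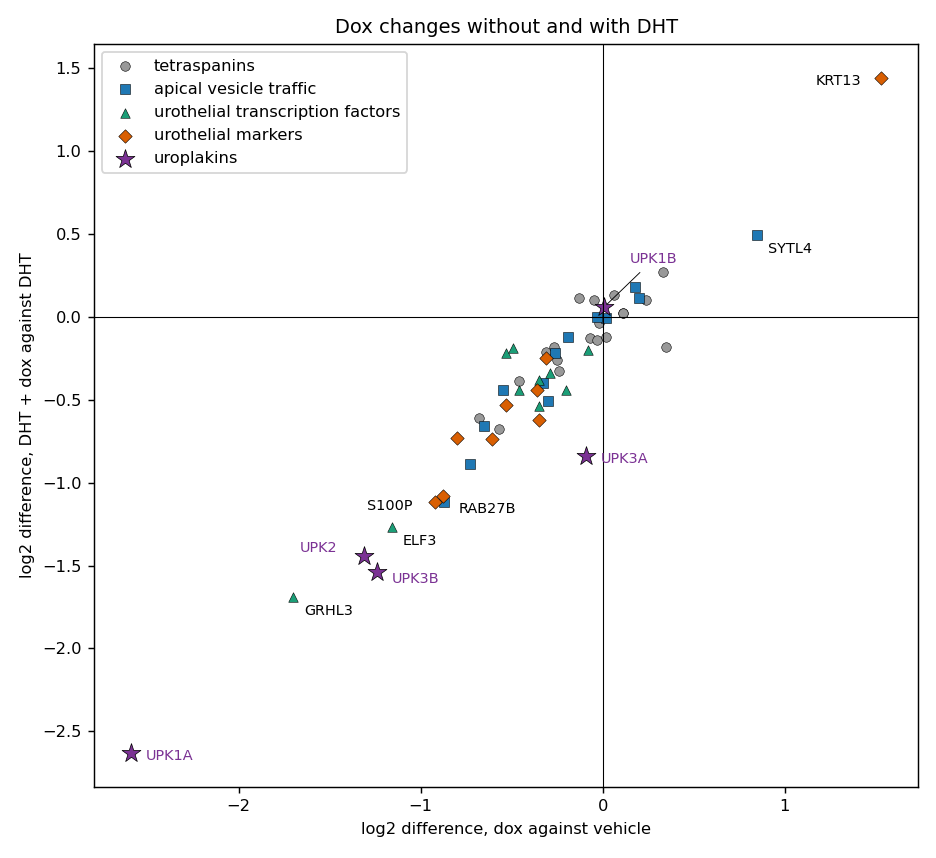
Log2 difference for dox against vehicle on the horizontal axis and for DHT with dox against DHT on the vertical axis, 1 point per tested gene of the 4 lists, with the uroplakin genes as stars. UPK1A lies lowest on both axes, at -2.59 and -2.63, GRHL3 and ELF3 lie near UPK2 and UPK3B, and KRT13 lies on the opposite side. Some positions are measured differences against a group with no array above background. They are UPK3A, TSPAN12 and CYP4B1 on both axes, KRT20 on the horizontal axis, and KRT13 and VSIG2 on the vertical axis.

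Genes of apical vesicle traffic carry uroplakin plaques to the cell surface. Of 13 tested, 7 fell and 1 rose in each dox comparison, at medians of -0.26 against vehicle and -0.22 with DHT present, against -0.01 and -0.02 over all genes. Of all genes 16.7% fell and 16.1% rose in the first comparison, and 19.2% and 14.3% in the second. RAB27B, a GTPase of the fusiform vesicles, fell, with log2 changes of -0.87 (limma adjusted p = 8.66e-09) and -1.12 (limma adjusted p = 1.35e-10), at means of 834 with DHT and dox, 1239 with dox, 1817 with DHT and 2266 with vehicle. The vesicle fusion protein VAMP8 fell, at -0.73 (limma adjusted p = 7.21e-07) and -0.89 (limma adjusted p = 4.48e-08), and the sorting adaptor TOM1L2 had -0.65 (limma adjusted p = 4.05e-06) and -0.66 (limma adjusted p = 3.28e-06). SYTL2, also an effector of RAB27 proteins, fell at -0.55 (limma adjusted p = 7.95e-06) and -0.44 (limma adjusted p = 9.8e-05). SYTL4, an effector of the same proteins, was the member that rose, by 0.85 (limma adjusted p = 5.73e-07) and 0.49 (limma adjusted p = 0.00045), and with dox present DHT lowered it, at -0.51 (limma adjusted p = 0.00292). With DHT against vehicle 1 traffic gene rose and 1 fell, where 4.51% of all genes rose and 3.1% fell. With dox present 1 traffic gene rose and 2 fell, where 2.03% of all genes rose and 2.24% fell. RAB8A, a GTPase of vesicle transport to the cell surface, was the one that rose, by 0.48 (limma adjusted p = 9.65e-05) and by 0.45 with dox present (limma adjusted p = 0.00029), and both calls held under all 20 settings. RAB27B fell with DHT, at -0.32 against vehicle (limma adjusted p = 0.00899) and -0.57 with dox present (limma adjusted p = 5e-05). Both DHT calls were lost with the mean of its probes, at limma adjusted p of 0.252 and 0.318, and the first also without DHT replicate 1, at 0.054.

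Other tetraspanins form the wider family of UPK1A and UPK1B. Of 19 tested, 6 fell and 3 rose with dox against vehicle, at a median of -0.05, where 16.7% of all genes fell and 16.1% rose. With DHT present 6 fell and 1 rose, at a median of -0.13, where 19.2% of all genes fell and 14.3% rose. TSPAN31 fell, at -0.68 (limma adjusted p = 1.09e-05) and -0.61 (limma adjusted p = 3.94e-05), as did TSPAN9, at -0.57 (limma adjusted p = 1.58e-06) and -0.68 (limma adjusted p = 1.43e-07). TSPAN12 was at least 1.31-fold lower with dox against vehicle (limma adjusted p = 0.000358) and at least 1.23-fold lower with DHT present (limma adjusted p = 0.00158). TSPAN33 and TSPAN15 rose with dox against vehicle, by 0.33 (limma adjusted p = 0.0109) and 0.35 (limma adjusted p = 0.0283), and both calls were lost without vehicle replicate 2, at limma adjusted p of 0.0653 and 0.0649. The first was also lost without dox replicate 1 (0.0553), and the second without dox replicate 3 (0.178) or vehicle replicate 3 (0.0672). Centring on housekeeping genes ended both, at limma adjusted p of 0.472 and 0.508. TSPAN15 rose with DHT by 0.56 (limma adjusted p = 0.00591). TSPAN3 rose with DHT by 0.26 (limma adjusted p = 0.038), a call lost in 9 of 20 settings. After centring on housekeeping genes 13 fell and 0 rose with dox against vehicle. That scaling moved the median of all genes to -0.255 in this comparison. It called 6992 of the 12110 genes, of which 7.92% were higher, so the count follows a shift of all genes.

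Genes beside the uroplakins on the chromosome were read as well. Of the 30 protein-coding genes that lie within 3 places of a member, 21 were tested. With dox against vehicle 3 rose and 3 fell, with changes of -0.69 to 0.46, a share near that of all genes, of which 16.1% rose and 16.7% fell. With DHT present 3 rose and 5 fell, with changes of -0.68 to 0.37, where 14.3% of all genes rose and 19.2% fell. The 5 tested neighbours of UPK1A (RBM42, ETV2, COX6B1, KMT2B and IGFLR1) were not called in either dox comparison, and lay between -0.13 and 0.10 against vehicle. Beside UPK2, BCL9L and CENATAC fell, at -0.69 (limma adjusted p = 4.48e-05) and -0.54 (limma adjusted p = 0.00314). Beside UPK3B, DTX2 fell by 0.62 (limma adjusted p = 9.8e-07) while ZP3, an egg coat protein, rose by 0.46 (limma adjusted p = 0.000257), a call lost on housekeeping centring at 0.21 (limma adjusted p = 0.0503).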

How the data were processed

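Biotin-labelled RNA from 12 cultures was read on single-colour bead arrays. The deposited intensities were made by the authors with GenomeStudio, per the submitters' processing notes; the sources used here state neither normalization nor background steps. Sorted columns differed by 0.8 units at most, so the intensities were used as deposited. All 12 columns were used, with a floor of 20, and log2 was taken. Where background was subtracted, its median of 118.5 was taken off and 16 was added. Changes of genes near background in that setting depend on the added 16.

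Of 47230 probes, 30113 had 1 gene symbol, 8 had several and 17109 were unnamed; 30074 were renamed by gene identifier through RefSeq GRCh38.p14. UPK3B, whose platform identifier did not match, kept its symbol. Each gene was read by its brightest probe. A gene entered the fit when a group mean passed the background limit; where no array of a group passed it, folds are bounds, with each dim array set to the limit or to its own reading, whichever was higher.

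One model with 4 group means was fitted with limma 3.58.1 (lmFit, eBayes with trend) in R 4.3.3, with two-sided p-values adjusted by Benjamini-Hochberg over 12110 genes at 0.05. The other probes of a gene came from the same fit over probes. Tables used Python 3.11.15 and pandas 2.3.3. On simulated data 200 of 200 genes with a log2 change of 1 were recovered in each dox comparison, with 7 and 12 false calls. Smaller changes and changes with DHT were not simulated, so their recovery is not known. The design states biological triplicates; the number of arrays limits the precision.

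Named genes were the members, the 5 most like UPK1A, up to 5 called genes per list with the largest dox change and up to 2 with the largest DHT change, the 3 protein-coding neighbours on each side, and RUNX2. ELF3 and RAB8A with DHT, PPARG with dox, GRHL2 and markers of cell type were added after their values were seen. The members and lists were chosen with earlier results of these data known. Replicate numbers did not pair the arrays: deviations of same-numbered arrays correlated at -0.121 to 0.209, with 1 of 18 pairs over 0.1.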

Additional observations from a re-analysis of the deposited data

Results flagged for a closer look

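The measured DHT change of UPK3A was lower in cultures with dox than in cultures without it. The interaction was -0.75 ± 0.13 on the log2 scale (SE, limma adjusted p = 0.0124). It equals the difference between both dox changes, known when the members were chosen, so its p-values are a description. UPK3A averaged 133 ± 12.2 with DHT and dox, 141 ± 4.57 with dox, 238 ± 24.2 with DHT and 150.4 ± 6.03 with vehicle (SD, n = 3 each). All 6 arrays with dox were below background, so the size of the DHT change there is not known and the interaction is one of measured intensities. Leaving out each array in turn gave -0.82 to -0.67, at limma adjusted p of 0.0104 to 0.0431. The call was lost after subtracting background, at -1.91 (limma adjusted p = 0.0538), and after centring on housekeeping genes, at -0.57 (limma adjusted p = 0.0539).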

How the results depend on the processing

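The 3 members lower with dox kept that direction under all 20 settings. Of 78 calls of other genes followed, some not given above, 52 were kept throughout, 26 were lost somewhere and 0 reversed. Centring arrays on housekeeping genes moved the median of all genes to -0.255 for dox against vehicle and -0.162 for DHT against vehicle. Centring on the 75th percentile left it unmoved, but sorted columns differed by 0.8 units at most, so it could not move it. That setting, counted among the 20, was no check. On housekeeping centring the counts of genes called became 6992 against 3978 for dox against vehicle, 2607 against 922 for DHT against vehicle, 252 against 517 for DHT with dox against dox, and 100 against 35 for the interaction. The share of calls that were higher became 7.92% against 49%, 5.29% against 59.2%, 55.6% against 47.6% and 97% against 45.7% in these, and 25.7% against 42.7% for DHT with dox against DHT. Under it UPK1A was at -2.84 for dox against vehicle and -0.32 for DHT against vehicle (called), and the interactions of UPK1A and UPK2 reversed to 0.128 and 0.046. The cause was not tested.

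Subtracting the background median gave UPK1A -3.27 for dox against vehicle and -3.49 for DHT with dox against DHT, put UPK1B at 0.11 for DHT against vehicle, reversed, and left 21 interaction calls; the mean of all probes left 22 and reversed the UPK3B interaction to 0.011. The second brightest UPK3B probe, an alternative chosen after seeing the data, gave an interaction of 0.42, reversed. UPK3B with DHT and dox against dox was called with only the groups compared (limma adjusted p = 0.019) and without DHT replicate 2 (0.0131).

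Leaving out each array in turn gave 550 to 925 calls for DHT against vehicle, 253 to 537 for DHT with dox against dox and 9 to 52 for the interaction. The UPK1A interaction ran from -0.173 to 0.056, with 0.06 without DHT with dox replicate 3 and 0.02 without dox replicate 3. UPK1B reversed for DHT against vehicle without DHT replicate 1 (0.04) or vehicle replicate 3 (0.14), within -0.105 to 0.139. It reversed for DHT with dox against dox without DHT with dox replicate 2 (-0.02), within -0.024 to 0.149. Its interaction reversed without that array (-0.02) or vehicle replicate 3 (-0.09), within -0.087 to 0.156. The UPK3B interaction reversed without DHT replicate 2 (0.02), within -0.492 to 0.016. With the replicate number as a block, the pairing gave 3862, 3989, 887, 449 and 50 calls in the 5 comparisons, UPK2 with DHT had a limma adjusted p of 0.0486, and no uroplakin call changed. UPK1B, UPK3A outside the DHT group and 1 UPK3B probe lay at the background limit, which limits what their changes can show.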
